A study of Gasterosteus aculeatus with 36 samples.

Results

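The insulin-like growth factor (IGF) axis was followed through 6 stages of early threespine stickleback (*Gasterosteus aculeatus*) development in 36 whole fish. The 9 genes of the axis chosen for this account were *igf1*, *igf2a*, *igf2b*, *igf1ra*, *igf1rb*, *igfbp1a*, *igfbp2a*, *igfbp3* and *igfbp5b*, picked by name. Of these, 5 stood in the tables under their own symbols, and *igfbp5b* was found by its gene ID as LOC120834113, which gave 6 members among 25258 genes of the count table and 24388 of the normalized table. The other 3 (*igf2a*, *igf2b* and *igf1ra*) were not analysed here.

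IGFs are secreted peptides related to insulin that drive growth through a tyrosine kinase receptor on the cell surface, which signals through PI3 kinase, AKT and mTOR. Growth hormone from the pituitary raises *igf1* transcription after birth or hatching, above all in the liver, while embryonic tissues also make IGFs of their own. IGF binding proteins hold the peptides in the circulation and between cells, and can block or enhance their access to the receptor.

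The study asked how gene expression differs between males and females in early development. Polyadenylated RNA was sequenced from single whole animals, with 3 males and 3 females at each of 6 stages: embryos at stage 17 (early formation of somites), stage 20 (first pigment) and stage 23 (yolk sac circulation complete), and larvae at 0, 4 and 8 days post hatching (dph). The fish carried no mutation or transgene that the labels name, and descended from wild-caught marine parents of a Washington and a Japanese population. They were reared in the laboratory and fed brine shrimp once hatched, and the sources used here do not tie a single fish to a population or clutch. The number of counted reads per fish lay between 8637205 and 52089185 (median 23246848), lowest in a stage 17 male. All 18 males had reads on the Y-linked *amhy* gene (1 to 38), against 2 of 18 females (0 to 4), so the ranges of reads overlapped. As these are whole animals, a change in the number of cells that express a gene and a change in RNA per cell cannot be told apart.

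Every one of the 6 members varied with stage (edgeR quasi-likelihood test over the 6 stages, adjusted p between 1.82e-22 for *igf1* and 1.42e-04 for *igfbp1a*). So did 96.8% of all 22168 genes tested, so this is no trait of the axis. The members parted into 3 courses. *igf1*, *igfbp2a* and *igfbp5b* climbed from stage 17 to the larvae, *igf1rb* was lowest at hatching, and *igfbp1a* and *igfbp3* stayed within a narrow span, in which the highest stage mean was 1.76 times the lowest for *igfbp1a* and 1.77 times for *igfbp3*.

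**Figure D1:**
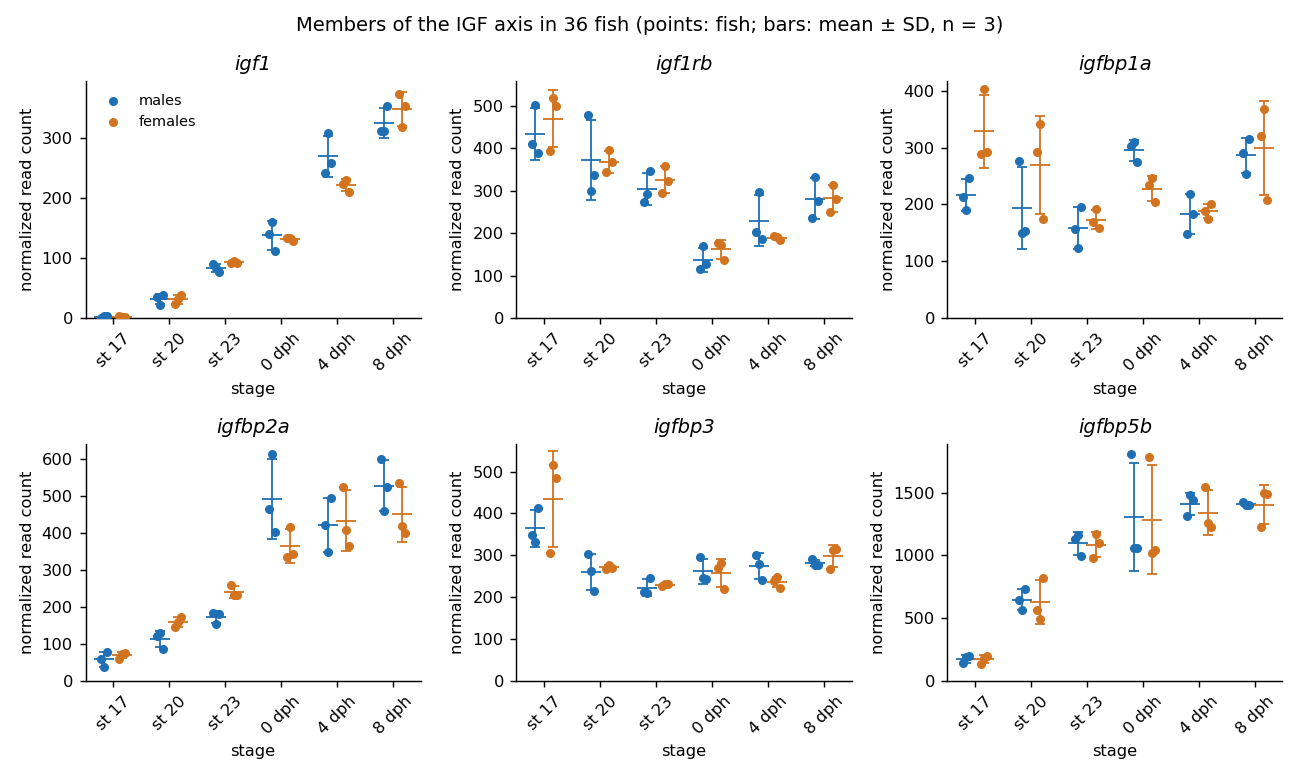
Normalized read counts (vertical axes, each from 0) of the 6 members at each stage (horizontal axes) in males (blue) and females (orange); each point is a fish, and bars give the mean and SD of 3 fish. The 6 fish of each stage lie above all fish of the stage before for *igf1*, with means of 336 at 8 dph and 2.08 at stage 17, while *igf1rb* is lowest at 0 dph with a mean of 149.6.

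*igf1*, the only IGF peptide gene among the members analysed, was close to silent at stage 17. The 3 males had 0, 3 and 1 reads and the 3 females 3, 1 and 1 reads. In normalized counts (reads divided by a size factor per fish), the 6 stage 17 embryos ranged over 0 to 4.25 (median 2.04), those of stage 20 over 21.7 to 38.3 (median 33.1) and those of stage 23 over 77.0 to 95.7 (median 90.2). Hatchlings (0 dph) ranged over 112 to 160.1 (median 134), larvae of 4 dph over 211 to 307 (median 236) and larvae of 8 dph over 310.4 to 372 (median 335). The ranges of consecutive stages did not overlap anywhere in this series.

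The rise of *igf1* was steepest at the start. Stage 20 stood above stage 17 by 4.0002 ± 0.29 on the log2 scale (SE; adjusted p = 2.47e-13), and stage 23 above stage 20 by 1.45 ± 0.16 (adjusted p = 4.27e-09). Each later step was smaller and also passed the test: 0.62 ± 0.14 at 0 dph against stage 23 (adjusted p = 3.64e-04), 0.79 ± 0.14 at 4 dph against 0 dph (adjusted p = 2.84e-05) and 0.45 ± 0.14 at 8 dph against 4 dph (adjusted p = 0.0204). *igf1* was the only member higher past the threshold at all 5 steps. Without a single library the last step missed the threshold in 2 cases, at an adjusted p of 0.0538 without 4 dph male replicate 1 and of 0.0560 without 8 dph male replicate 3.

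Between 8 dph and stage 17 the level of *igf1* differed by 7.31 ± 0.24 on the log2 scale (adjusted p = 1.55e-22), a larger log2 change than that of 94.65% of the genes tested. Set against the 9 reads of stage 17 pooled over its 6 fish (reads over summed size factors), the mean 8 dph level was 179 times as high. Its 95% counting interval of 94.4 to 392 covers counting error only. The ratio of the 2 stage means was 161. Taken by sex, the rise was 7.40 ± 0.35 in males and 7.22 ± 0.34 in females. Across all genes the median change in this comparison was 0.24, against which the changes of the members can be read.

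**Figure D2:**
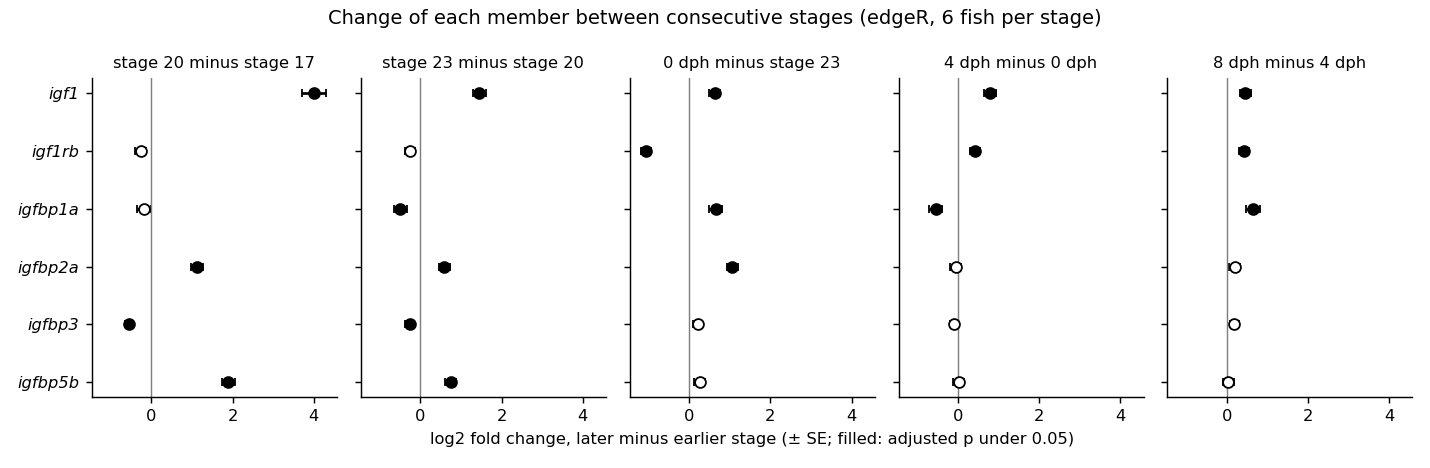
Log2 fold change (horizontal axes, later minus earlier stage, with SE) of each member in the 5 steps between consecutive stages, 6 fish per stage; filled points passed an adjusted p of 0.05. *igf1* lies to the right of 0 in every panel, with its largest step (4.0002) at stage 20 against stage 17.

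The receptor gene *igf1rb*, which encodes a receptor for IGF1, took another course. Embryos of stage 17 ranged over 388 to 517 normalized counts (median 454), those of stage 20 over 299 to 477 (median 355) and those of stage 23 over 274 to 359 (median 309). Hatchlings had 115 to 177 (median 153), larvae of 4 dph 185 to 298 (median 192) and larvae of 8 dph 235 to 332 (median 278). All 6 newly hatched larvae lay below every other fish of the series. In order of mean level the stages ran 0 dph, 4 dph, 8 dph, stage 23, stage 20 and stage 17, and only 0 dph was separated from its neighbour, while the others overlapped.

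*igf1rb* fell by 1.07 ± 0.13 on the log2 scale at 0 dph against stage 23 (adjusted p = 4.29e-08). The 2 earlier steps, of -0.27 ± 0.13 and -0.26 ± 0.13, missed the threshold (adjusted p = 0.0691 and 0.0785). After hatching it rose by 0.41 ± 0.13 at 4 dph against 0 dph (adjusted p = 0.0109) and by 0.41 ± 0.13 at 8 dph against 4 dph (adjusted p = 0.0264). One male at 4 dph stood at 298 against 185 to 203 in the other 5 fish, and without it the step from hatching was 0.29 (adjusted p = 0.0781). The last step was lost on leaving out any of 6 single libraries. At 8 dph *igf1rb* was still below stage 17, by a log2 change of -0.77 ± 0.13 (adjusted p = 2.71e-06).

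Of the 4 binding protein genes, *igfbp5b* and *igfbp2a* rose. *igfbp5b* encodes a binding protein known in mammals from bone and muscle. Embryos of stage 17 had 135 to 201 normalized counts (median 188), those of stage 20 had 494 to 822 (median 605) and those of stage 23 had 977 to 1172 (median 1117). The larvae of 0, 4 and 8 dph had medians of 1061, 1373 and 1414, within ranges of 1021 to 1805, 1223 to 1544 and 1228 to 1494 that all overlapped. The change was 1.90 ± 0.15 at stage 20 against stage 17 (adjusted p = 2.85e-12) and 0.75 ± 0.14 at stage 23 against stage 20 (adjusted p = 3.10e-05), and none of the 3 later steps passed (adjusted p between 0.108 and 0.939).

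The newly hatched larvae were uneven in *igfbp5b*. Male replicate 1 had 1805 normalized counts and female replicate 1 had 1786, while the other 4 fish lay between 1021 and 1061. The 2 high fish carry the same replicate number, and their library names carry the 2 highest numbers of that stage. The labels do not say whether either number marks a shared clutch or day. Over all genes tested, the deviations of these 2 fish from their group means correlated by 0.465, the highest of 18 same-numbered pairs. The coefficient of variation at 0 dph was 29.9%, against 6.89% at 8 dph and 7.79% at stage 23.

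*igfbp2a* encodes one of 2 stickleback copies of IGF binding protein 2, and rose up to hatching. Its median was 66.7 normalized counts in stage 17 embryos (range 38.5 to 79.3), 138 in stage 20 embryos (87.5 to 172) and 208 in stage 23 embryos (154 to 259.8). The larvae had medians of 409 (hatchlings, 334 to 612), 414 (4 dph, 349 to 525) and 492 (8 dph, 399 to 599). The 3 steps up to hatching passed the test, at 1.12 ± 0.15 (adjusted p = 1.58e-07), 0.59 ± 0.14 (adjusted p = 4.74e-04) and 1.06 ± 0.13 (adjusted p = 3.95e-08), and the 2 steps after hatching did not (adjusted p = 0.707 and 0.353). At 8 dph against stage 17 *igfbp2a* had risen by 2.89 ± 0.15 and *igfbp5b* by 2.94 ± 0.15 on the log2 scale.

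*igfbp3*, which in mammals carries most of the circulating IGF, was highest at the first stage. The stage 17 embryos had a median of 381 normalized counts (range 305 to 517), the stage 20 embryos 269 (215 to 303) and the stage 23 embryos 228 (209 to 246). Medians of the larvae were 258 (hatchlings, 220.5 to 296), 243 (4 dph, 222 to 302) and 284 (8 dph, 267 to 315). *igfbp3* fell by 0.55 ± 0.11 at stage 20 against stage 17 (adjusted p = 3.75e-05). A further fall of 0.26 ± 0.11 at stage 23 (adjusted p = 0.0340) missed the threshold with DESeq2 size factors (adjusted p = 0.0613), in the DESeq2 test (adjusted p = 0.0606) and on leaving out any of 8 libraries, and none of the later steps passed (adjusted p between 0.0910 and 0.455). Over the whole series its log2 change was -0.53 ± 0.11 (adjusted p = 3.02e-05).

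*igfbp1a*, whose mammalian and zebrafish counterparts are known to respond to fasting and low oxygen, went down and up in turn. The embryos had medians of 268 normalized counts (stage 17, range 190.5 to 403), 225 (stage 20, 150.4 to 342) and 164 (stage 23, 123 to 195). The larvae had medians of 259.96 (hatchlings, 204 to 309.7), 186 (4 dph, 148 to 218) and 303 (8 dph, 207 to 368). It was down by 0.50 ± 0.16 at stage 23 against stage 20 (adjusted p = 0.00942), up by 0.65 ± 0.16 at 0 dph (adjusted p = 8.93e-04), down by 0.55 ± 0.16 at 4 dph (adjusted p = 0.00600) and up by 0.64 ± 0.16 at 8 dph (adjusted p = 0.00674). The first of these rested on 1 fish, as without stage 20 male replicate 1 the change was -0.32 (adjusted p = 0.0834). The last stage and the first overlapped fully, with a log2 change of 0.05 ± 0.16 (adjusted p = 0.760).

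Counted by step, 3 members were higher and 1 lower at stage 20 against stage 17, where 34.3% of all genes tested were higher and 30.1% lower. At stage 23 against stage 20, 3 were higher and 2 lower (30.2% and 28.1% of genes), and at 0 dph against stage 23, 3 were higher and 1 lower (33.7% and 24.7%). At 4 dph against 0 dph, 2 were higher and 1 lower (24.0% and 24.4%). The last step, at 8 dph against 4 dph, was the quietest of the series, with 8.44% of genes higher and 9.47% lower, and 3 of the 6 members were higher in it and none lower. Without 4 dph male replicate 1 the count of this last step was 1, and without stage 20 male replicate 1 that of stage 23 against stage 20 was 3 in place of 5. Over the whole span, 8 dph against stage 17, 3 members were higher and 2 lower, where 48.0% of genes were higher and 39.4% lower. The log2 changes of the 6 members lay far apart, at -0.77, -0.53, 0.05, 2.89, 2.94 and 7.31. Their median of 1.47 fell in the gap between *igfbp1a* and *igfbp2a*, so it describes no member and no rise of the axis as a whole. The share of genes tested with a lower change was 29.69% for *igf1rb*, 34.91% for *igfbp3* and 46.89% for *igfbp1a*. It was 76.83% for *igfbp2a*, 77.1% for *igfbp5b* and 94.65% for *igf1*.

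The ratio of a binding protein to *igf1* within a fish does not depend on how libraries are scaled. Read counts are not corrected for transcript length here, so only the change of this ratio was compared, not its level. All 4 ratios were lower at the last stage. The log2 change at 8 dph against stage 17 was -7.14 for *igfbp1a*, -4.31 for *igfbp2a*, -7.70 for *igfbp3* and -4.24 for *igfbp5b*. The 6 fish at 8 dph lay below the 6 at stage 17 in each ratio. This separation is fixed by the rise of *igf1*, the denominator of all 4, which exceeded the change of every binding protein, so no test of it is given. The ratios also share its few reads at stage 17, where they spread most (SD 1.21 to 1.35, n = 6, against 0.17 to 0.32 at 8 dph).

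**Figure D3:**
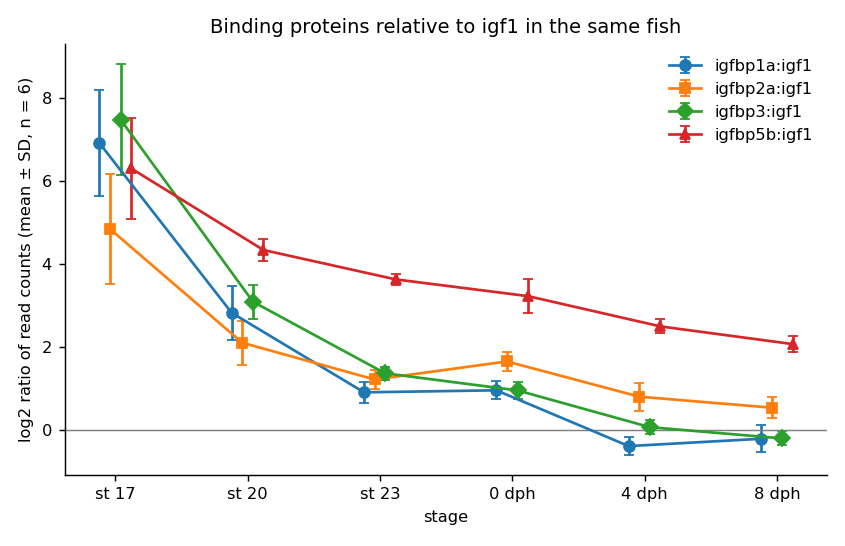
Log2 ratio of the read count of each binding protein to that of *igf1* in the same fish (vertical axis) by stage (horizontal axis); points are means of 6 fish and bars the SD. All 4 ratios drop most between the first and the second stage, and by 8 dph those of *igfbp1a* (-0.22) and *igfbp3* (-0.21) have passed below 0, a line that has no meaning of its own without transcript lengths.

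Between the sexes no member differed past the threshold. At none of the 6 stages was any member called in males against females (0 of 6 each), where 4.42%, 4.63% and 4.92% of all genes were called in embryos of stages 17, 20 and 23, and 4.73%, 4.73% and 4.83% in larvae of 0, 4 and 8 dph. These shares include genes of the X and Y chromosomes, whose expression the paper reports to separate the sexes. The share among autosomal genes alone was not computed. At an unadjusted p under 0.05 there were 5 such cases among 36 in edgeR. The share of all genes under this unadjusted cut is not given here, so the count cannot be set against it. The DESeq2 test also called 0 past the adjusted threshold. Over all stages together, 0 of 6 were called (5.86% of genes), with log2 differences between -0.17 ± 0.09 for *igfbp1a* and 0.02 ± 0.08 for *igfbp5b* and none at an unadjusted p under 0.05. The stage by sex interaction also called 0 of 6 (0.0451% of genes), and 1 member, *igfbp2a*, had an unadjusted p under 0.05 (edgeR adjusted p = 0.654).

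*igfbp2a* did not differ between the sexes past the threshold, though its values were apart at 2 stages. Over all genes tested the sexes were apart in 12.7% of cases, so this is not read as a sex difference. At stage 20 males had 122, 129 and 87.5 normalized counts and females 147, 158 and 172. Stage 23 males had 184, 154 and 179.8, and females of that stage 259.8, 231 and 231. At both stages every male lay below every female. At 0 dph males (464, 612 and 401) overlapped with females (334, 417 and 344) from above. The log2 difference, males minus females, was -0.51 ± 0.20 at stage 20 (adjusted p = 0.262), -0.50 ± 0.18 at stage 23 (adjusted p = 0.192) and 0.42 ± 0.18 at 0 dph (adjusted p = 0.402), all in the edgeR fit.

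*igfbp1a* did not differ between the sexes past the threshold at any stage. Its mean was lower in males at stages 17 and 20, and at stage 20 the sexes overlapped. Males at stage 17 had 213, 190.5 and 246 normalized counts, and females 289, 403 and 293, with a log2 difference of -0.63 ± 0.23 (edgeR, adjusted p = 0.193). Stage 20 males had 276, 150.4 and 153, against 292, 342 and 175 in females, a difference of -0.49 ± 0.23 (edgeR, adjusted p = 0.512). The value of 276 was that of stage 20 male replicate 1, and without this fish the difference was -0.85 (edgeR, adjusted p = 0.0294). At 0 dph the males (302, 309.7 and 274) lay above the females (234, 246 and 204), with a difference of 0.36 ± 0.23 (edgeR, adjusted p = 0.974). At stage 17 *igfbp3* had 348, 331 and 413 in males, against 305, 517 and 484 in females. The difference was -0.28 ± 0.15 (edgeR, adjusted p = 0.616). Without stage 17 female replicate 1, the lowest female, it was -0.49 (edgeR, adjusted p = 0.0316). The 2 fish left out here for *igfbp1a* and *igfbp3* both went against the difference. Their removal enlarges it by its nature and is no evidence of a sex difference. Among 1128 single values from leaving out 1 library, these 2 were the ones that became stronger.

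Over members and stages, males and females did not overlap in 6 of 36 cases, against 12.7% of such cases over all genes tested, those of the X and Y chromosomes included. These 6 were *igf1* at stage 23 (males lower) and 4 dph (males higher), *igfbp1a* at stage 17 (males lower) and 0 dph (males higher), and *igfbp2a* at stages 20 and 23 (males lower). *igfbp5b* was the member closest to equal between the sexes, with log2 differences from -0.01 to 0.06 over the 6 stages and an SE near 0.19 to 0.23 at each.

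**Figure D4:**
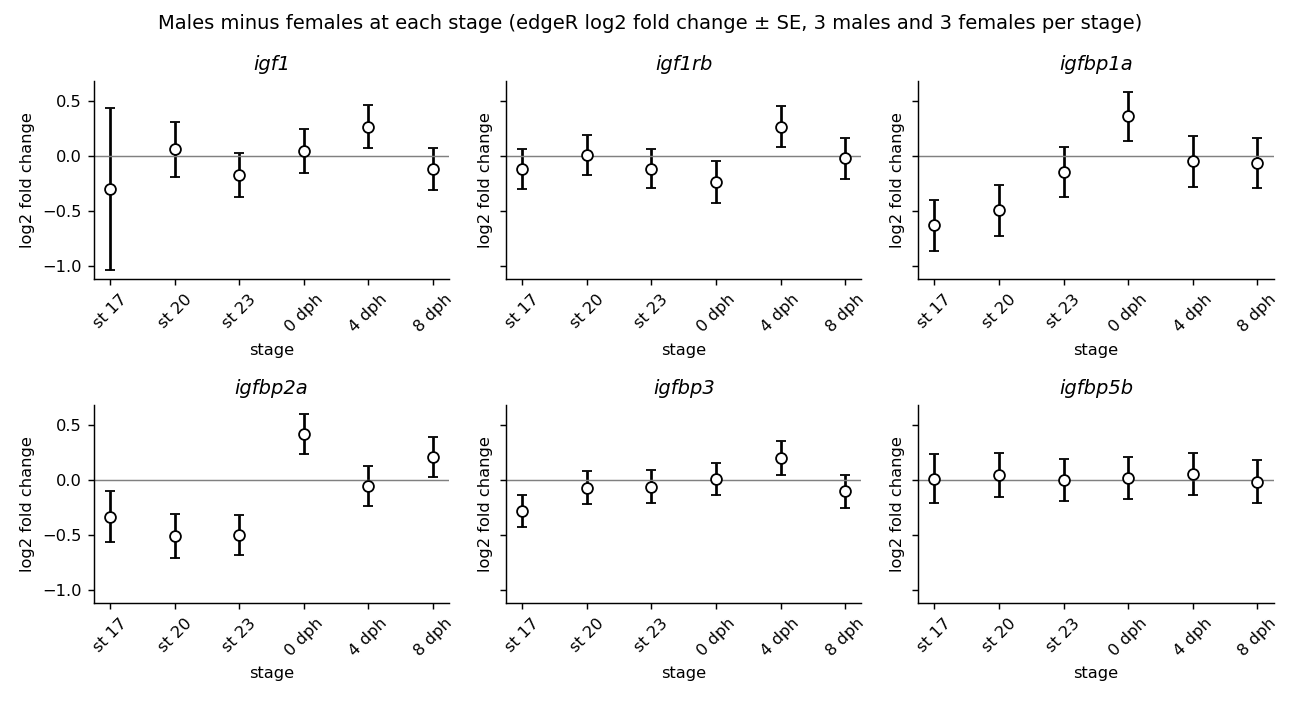
Log2 fold change of males over females (vertical axes, with SE, 3 males and 3 females per point) for each member by stage (horizontal axes). No point passed an adjusted p of 0.05; those farthest from 0 are *igfbp1a* at stage 17 (-0.63) and *igfbp2a* at stages 20 (-0.51) and 23 (-0.50).

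Other genes of the same family and pathway were taken from lists of 96 symbols in 7 groups, of which those matched and tested are counted here at 8 dph against stage 17. In this comparison 48.0% of all genes tested were higher and 39.4% lower, and the counts of each list stand against these shares. Of 4 further genes for binding proteins and their partners, all 4 were higher, with a median log2 change of 4.76. *igfals*, the acid-labile subunit that in mammals joins IGF and IGFBP3 in the blood, had 7 reads in all at stage 17, and was 726 times as high at 8 dph (95% counting interval 352 to 1806). Its normalized counts averaged 1.29 ± 1.47, 38.3 ± 24.8 and 245 ± 15.3 in embryos of stages 17, 20 and 23, and 319 ± 92.6, 717 ± 158 and 1059 ± 216 in larvae of 0, 4 and 8 dph (SD, n = 6).

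The second copies of the binding proteins 2 and 5 rose as well, by 5.41 ± 0.30 for *igfbp2b* (LOC120834115) and by 4.097 ± 0.21 for *igfbp5a*. In the gene table of the assembly fGasAcu3.hap1.1, which is not the build the reads were aligned to, *igfbp2a* and *igfbp5a* are next to each other on chromosome 1, and *igfbp2b* and *igfbp5b* lie on chromosome 16 with 1 gene between them. The courses of neighbours are given side by side, and their difference was not tested. *igfbp5b* had risen by stage 20, when *igfbp2b* averaged 1.43 ± 0.79 normalized counts, against 3.18 ± 2.12 at stage 17 (SD, n = 6 each), and *igfbp2b* rose by 4.44 ± 0.36 on the log2 scale at stage 23 against stage 20 (adjusted p = 5.93e-12). On chromosome 1, *igfbp5a* averaged 323 ± 47.2 at 8 dph, against 466 ± 122 at 4 dph, and fell by 0.51 ± 0.16 in that step (adjusted p = 0.0208), while *igfbp2a* did not change past the threshold. Only uniquely mapped reads were counted, and any reads shared between copies are missing from each.

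Of 11 tested genes for growth hormone, its release, its receptors and the signalling below them, 8 were higher and 3 not called. Among all genes tested 48.0% were higher and 39.4% lower. The median log2 change of the 11 was 1.90, which is no measure of hormone supply. *gh1*, growth hormone itself, had no read in the 12 fish of stages 17 and 20, and 2 reads in 1 of 6 fish at stage 23. The larvae of 0, 4 and 8 dph averaged 30.7 ± 15.4, 58.6 ± 20.18 and 172 ± 31.4 normalized counts (SD, n = 6), so that 8 dph was at least 275-fold higher than stage 17 (floor of 3 reads over the 6 fish). The largest step of *igf1*, at stage 20 against stage 17, fell between 2 stages with no *gh1* read. The part of growth hormone in this step was not tested. At this depth 3 reads over 6 fish correspond to a mean of 0.625 normalized counts, and lower levels of *gh1* would go unseen.

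Of the 2 growth hormone receptor genes, *ghrb* was called over the whole span and *ghra* was not. *ghrb* averaged 95.9 ± 16.1, 265 ± 29.9 and 194 ± 22.3 normalized counts in embryos of stages 17, 20 and 23, and 198 ± 25.4, 351 ± 41.8 and 1010.0 ± 204 in larvae of 0, 4 and 8 dph (SD, n = 6). Its step at 8 dph against 4 dph, 1.51 ± 0.13 on the log2 scale (adjusted p = 1.23e-09), came in the quietest interval of the series. *ghra* averaged 941 ± 97.5 at 8 dph, against 848 ± 70.9 at stage 17, with its highest mean of 1375 ± 229 at stage 20, and over the whole span its log2 change was 0.07 ± 0.10 (adjusted p = 0.486), where *ghrb* rose by 3.32 ± 0.14. *ghrl*, the stomach hormone ghrelin, had no read at stages 17, 20 and 23 and was at least 73.1-fold higher at 8 dph than at stage 17. *ghrhrb*, a receptor gene for the hypothalamic releasing hormone, rose by 4.76 ± 0.31.

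**Figure D5:**
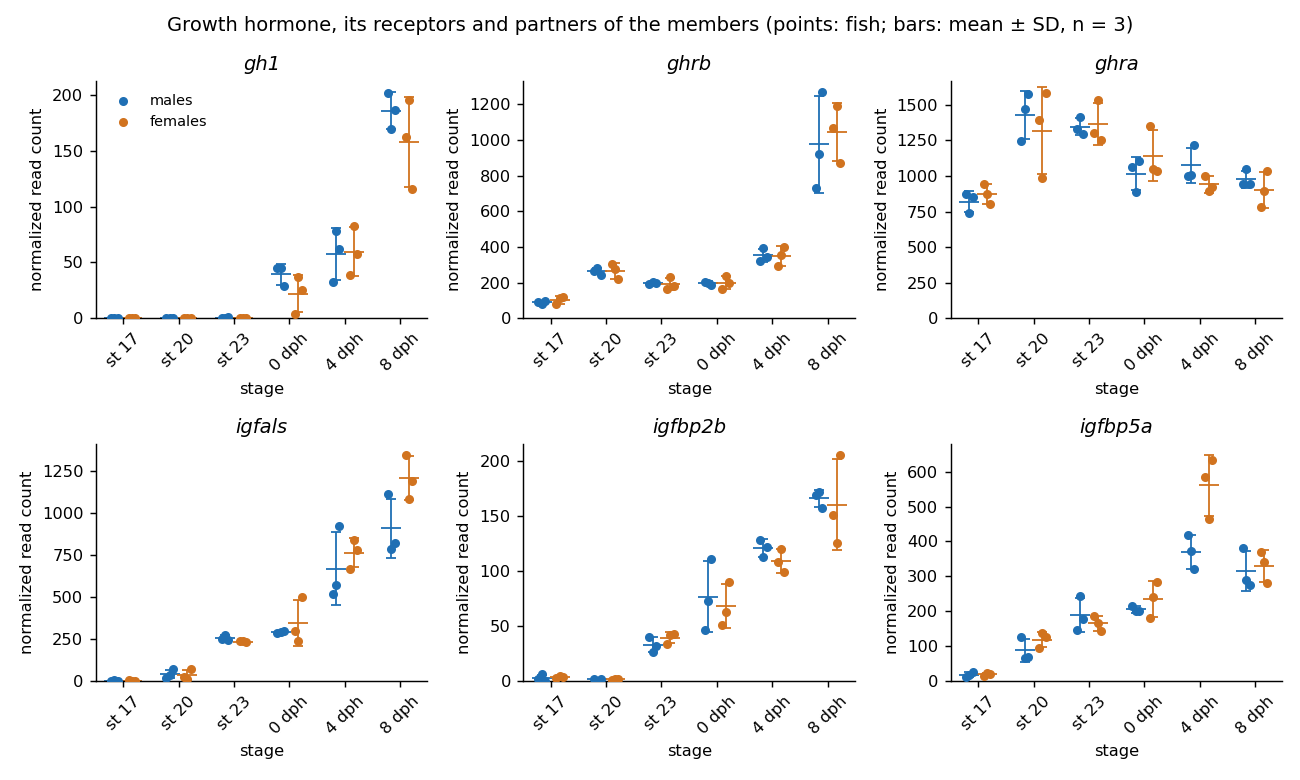
Normalized read counts (vertical axes, each from 0) of growth hormone (*gh1*), its receptors (*ghrb*, *ghra*), the acid-labile subunit (*igfals*) and the second copies of 2 binding proteins (*igfbp2b*, *igfbp5a*) by stage (horizontal axes) in males (blue) and females (orange); points are fish and bars the mean and SD of 3. *gh1* has a mean of 30.7 over 6 fish at hatching, against 0.205 at stage 23, and *ghrb* is highest at 8 dph (mean 1010.0) where *ghra* is not.

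All 5 tested genes for proteases of binding proteins and for their inhibitors were higher at 8 dph than at stage 17, with a median log2 change of 1.87. Among all genes tested the share higher was 48.0%. *pappa2*, a protease that cleaves IGF binding proteins in mammals, rose by 1.87 ± 0.21. The stanniocalcin genes *stc1l* and *stc1*, whose products inhibit such proteases in mammals, rose too. *stc1l* had 5 reads at stage 17 and was 524 times as high at 8 dph (95% counting interval 225 to 1615), and *stc1* rose by 3.43 ± 0.31.

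Among other ligands of the insulin family, 4 of 5 were higher and 1 lower at 8 dph than at stage 17 (48.0% and 39.4% of all genes), with a median log2 change of 3.01. Insulin (*ins*) rose by 6.15 ± 0.43, and averaged 482 ± 237 normalized counts at 8 dph, against 6.21 ± 3.96 at stage 17 (SD, n = 6 each). *insl5a*, an insulin-like peptide known from the mammalian gut, had 446 reads at 8 dph, against 1 read at stage 17, a ratio of 371 with a 95% counting interval of 66.5 to 14637. The relaxin family gene *rln3b* rose by 3.01 ± 0.51, and *rln1* fell by 0.86 ± 0.33.

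Of the 3 other receptors, 1 was higher and 2 were lower (48.0% and 39.4% of all genes), with a median log2 change of -0.43. *igf2r*, which in mammals takes up IGF2 for degradation, fell by 1.37 ± 0.10. The insulin receptor genes went apart, as *insra* rose by 0.58 ± 0.11 and *insrb* fell by 0.43 ± 0.13. Like *igf1rb*, all 3 had their lowest mean at hatching, with 1109 ± 99.0 normalized counts for *igf2r*, 1337 ± 246 for *insra* and 706 ± 197 for *insrb* at 0 dph (SD, n = 6 each). This is no trait of the receptors alone. In other lists the means of *akt1*, *rptor* and *igf2bp2a* were also lowest at hatching, and those of *rheb*, *akt3a*, *foxo1a* and *rps6kb1a* were not. Against stage 23, where *insrb* averaged 1343 ± 230, its log2 change was -0.93 ± 0.13 (adjusted p = 6.64e-07), beside -0.53 ± 0.10 for *igf2r* (adjusted p = 2.73e-05) and -0.49 ± 0.11 for *insra* (adjusted p = 3.10e-04). In this step 24.7% of all genes tested were lower.

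The 3 tested genes for IGF2 mRNA binding proteins, RNA binding proteins of embryonic and tumour cells, were all lower at 8 dph than at stage 17, with a median log2 change of -2.91. Among all genes tested the share lower was 39.4%. *igf2bp1* fell by 3.29 ± 0.12, *igf2bp3* fell by 2.91 ± 0.10 and *igf2bp2a* fell by 0.43 ± 0.12. *igf2bp1* averaged 17400 ± 1890, 11304 ± 618 and 4936 ± 902 normalized counts in embryos of stages 17, 20 and 23, and 2442 ± 435, 1975 ± 59.8 and 1878 ± 161 in larvae of 0, 4 and 8 dph (SD, n = 6).

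The genes for signalling inside the cell were called in each direction about as often as all genes. Of 28 tested genes for signalling below the receptor, 14 were higher, 12 lower and 2 not called at 8 dph against stage 17, with a median log2 change of 0.12, where 48.0% of all genes were higher and 39.4% lower. *rheb*, the small GTPase that activates mTOR, rose by 3.95 ± 0.19, the AKT kinase gene *akt3a* by 3.15 ± 0.16 and the transcription factor gene *foxo1a*, which insulin signalling holds in check, by 2.68 ± 0.11. The S6 kinase gene *rps6kb1a* fell by 2.58 ± 0.10, *akt1* fell by 1.60 ± 0.09 and *rptor*, an mTOR partner, fell by 1.26 ± 0.07.

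The genes most like each member over the 36 fish were named by Pearson's r of log2(normalized count + 1) among 12528 genes with a symbol and a mean of at least 50 normalized counts. This is a description over fish that share their stages, and 1760 genes had an r above 0.9 with *igf1*, 1486 with *igfbp5b* and 1266 with *igfbp2a*. Among the nearest to *igf1* were *atp2b3b* and *cacnb4b* (r = 0.99 each). *igfbp5b* was nearest to *gnao1b*, *snap91a* and *cav3* (r = 0.98 each), and *igfbp2a* to *slc4a4a*, *ankrd1a* (0.97 each) and *slc7a10a* (0.97).

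Members outside the rising group had fewer near neighbours. *igf1rb* was nearest to *atg2b* (r = 0.94), *ankle2* and *med13a* (0.93 each), with 33 genes above 0.9. *igfbp3* was nearest to *gadd45ga*, *mtmr14* (0.83 each) and *slc37a2* (0.81), and *igfbp1a* to *dnajb6b* (0.68), *socs2* and *wwc3* (0.62 each), with 0 genes above 0.9 for either. Among the members themselves, r was highest between *igf1* and *igfbp5b* (0.96) and between *igf1* and *igfbp2a* (0.92), and lowest between *igf1rb* and *igfbp2a* (-0.76), over the same 36 fish.

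Levels of tissue markers also differed between the first and the last stage, where 48.0% of all genes tested were higher and 39.4% lower. Of 8 liver markers tested, 7 were higher and 1 lower at 8 dph than at stage 17. Their summed level was 57819 to 79392 normalized counts at 8 dph, against 35006 to 53055 at stage 17, with its highest median (100357) at stage 20. That sum was mostly *tfa* and *apobb.1*, with means of 65438 and 37535 at stage 20. The means of *fga*, *fgb*, *fgg* and *serpinc1* rose at every step, as that of *igf1* did, and those of *hpxb*, *f2*, *tfa* and *apobb.1* did not. All 6 fast muscle markers were higher, with sums of 768453 to 1164720 at 8 dph, against 1056 to 2260 at stage 17. For the pituitary 4 of 5 were higher, with sums of 249 to 326 at 8 dph, against 7.09 to 19.6 at stage 17, where *gh1* and *prl* had no read. At 8 dph the pituitary sum was mostly *gh1*, with a mean of 172. For the pancreatic islet 4 of 5 were higher, with sums of 1444 to 2444, against 132 to 214. The islet sum was mostly *neurod1*, with means of 1225 at 8 dph and 150 at stage 17. For germ cells 3 of 4 were lower, with sums of 41.7 to 127, against 159 to 207. The part of these tissues in the changes of the members was not tested.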

How the data were processed

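Whole embryos and larvae were sequenced from stranded polyadenylated RNA libraries (150 bp paired ends). The authors trimmed reads with Trimmomatic 0.39, aligned them to GAculeatus_UGA_version5 with HISAT-3N, kept uniquely mapped reads and counted them per gene with HTSeq 2.0.2 on the reverse strand. The deposited counts are whole reads per gene, with paired and orphan reads added. The deposited normalized signal is those counts divided by 1 DESeq2 size factor per sample, for genes with at least 10 reads in all, as was checked on the tables. Columns were matched to samples by library name.

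Under R 4.3.3, counts were tested in edgeR 4.0.16 with limma 3.58.1, through TMM scaling, filterByExpr, glmQLFit and glmQLFTest on stage and sex as 1 factor of 12 groups, with Benjamini-Hochberg adjustment over 22168 genes and a threshold of 0.05. Stage contrasts used the mean of both sexes. Printed errors of log2 changes are SE. The scripts were tested on simulated data. The alternatives were DESeq2 size factors, the DESeq2 test (DESeq2 1.42.0), no filter on low counts, a replicate block and the 6 samples of a stage alone. Each sex was also taken by its own contrast within the fit of all 36 fish, and each of 36 libraries was left out in turn. Ratios added 0.5 to each count and are given as values without their planned permutation test. Values of genes with few reads are limited by counting error, and PCR duplicates are not told apart from molecules. Fish of a group are separate animals, but shared clutches are not known. The edgeR p-values set differences in means against the spread between fish, estimated over all 12 groups, and take the fish as independent.

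Members and gene lists were chosen with earlier results of these data known. Named were all members present, of each list up to 3 called genes with the largest rise and 3 with the largest fall at 8 dph against stage 17, and the 3 genes most correlated with each member, of which 1 is not reported here; *ghra*, *ghrb*, *igf2bp1* over all stages, and *insrb* and *igfbp2b* at single steps were described further after their values were seen. Of the listed symbols, 6 were matched by gene ID through the RefSeq gene table of fGasAcu3.hap1.1.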

Additional observations from a re-analysis of the deposited data

Results flagged for a closer look

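The 6 fish of each stage were compared with each other for each of the 6 members, in 36 groups, of which chance would set apart about 1 in 20. Fish far from the other 5 were found in 2. In *igf1rb* at 4 dph, male replicate 2 had 297.71 normalized counts, against 184.9 to 203.33 in the others, and this fish decided the call of the step from 0 dph to 4 dph. In *igfbp5b* at 8 dph, female replicate 1 had 1228.5 normalized counts, against 1397.7 to 1494.4 in the others. No member had a stage by sex interaction past the threshold.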

How the results depend on the processing

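Alternatives with other scaling, the DESeq2 test, no filter, the contrast of either sex or other additions to the counts in ratios were compared. Under them the number of members called did not move by more than 1.5 times (49 values for 12 counts, all within that limit). Leaving out 1 library gave 3 to 5 members called at stage 23 against stage 20 (3 without stage 20 male replicate 1), 1 to 3 at 8 dph against 4 dph (1 without 4 dph male replicate 1), and 0 to 1 between the sexes within stages (1 without stage 17 female replicate 1 and 1 without stage 20 male replicate 1); the cause was not tested. No result reversed. Fish of the same number in males and females correlated in their deviations by -0.107 to 0.465 over 18 pairs, with 7 above 0.1, among them all 3 pairs at 0 dph, where *igfbp5b* was highest in both fish numbered 1. The numbers were not taken as pairs, since the labels do not say what they mark and the library names carry other numbers. Neither the correlations nor a block on these numbers can therefore show or exclude a shared clutch. With the replicate block 0 members were called between the sexes and 5 at 8 dph against stage 17. Depth limits *igf1* and other genes of few reads at stage 17.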
